A study of Arabidopsis thaliana with 14 samples.

Results

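The genes described here are the transcription factors of 6 plant families, MYB, WRKY, NAC, bZIP, TCP and bHLH, that were measured on Affymetrix arrays in Arabidopsis thaliana. A gene was taken if its probe set named 1 gene in the platform annotation and its symbol began with one of those family names followed by a digit. This gave 27 genes of the 13286 genes that had such a probe set. They were 14 bZIP, 6 WRKY, 5 bHLH, 1 NAC and 1 TCP gene, each with a single probe set. No MYB gene met the rule, so the MYB family has no values here. A reference gene table of the species holds 325 genes whose symbols carry these family names, so the 27 are a small sample of the families.

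Each family is defined by the protein domain with which its members bind DNA, and many members act as pairs. The bZIP and bHLH proteins dimerise to bind DNA, and changes of partner alter which genes they act on. Several members have known roles in nutrient supply, protein folding stress, low energy, defence and senescence, which are given beside each gene.

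The study compared the wild-type accession Col-7 with the gir1 mutant, whose name stands for root elongation inhibited by glucose. Root arrays came from plants aged 21 days that were grown on vertical agar plates without glucose and then on 4% glucose (3 Col-7 and 3 gir arrays). The design text gives 11 days before the transfer and the growth protocol gives 7. Inflorescence arrays came from soil-grown plants aged 33 days, with opened and opening flowers removed (4 Col-7 and 4 gir arrays). The labels give no agent other than glucose and do not say whether plants were pooled, or whether replicates are of separate plants. The p-values therefore reflect variation among these arrays, some of which may be technical. The locus mutated in gir1 is not given in the sources used here, and its transcript was not analysed. Tissue, age, medium and glucose differed together between roots and inflorescences and cannot be told apart. The control probe set for dap, a bacterial transcript, also differed with tissue. It averaged 3.26 ± 2.82 in Col-7 roots and 8.08 ± 11.5 in gir roots (SD, n = 3). On the inflorescence arrays it averaged 316 ± 43.4 in Col-7 and 303 ± 78.0 in gir (SD, n = 4). Its part in the tissue differences was not tested.

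The tissue labels were checked against marker genes. A listed gene counts as measured here if a probe set named it alone in the platform annotation. That annotation listed 14016 of the 22810 probe sets, so genes not measured may still have probe sets on the array. The 2 measured root hair markers, EXPA7 and EXPA18, summed to between 1933 and 2368 on the root arrays and between 25.5 and 91.5 on the inflorescence arrays. The 4 measured tapetum markers summed to between 5400 and 6279 on the inflorescence arrays and to at most 117 on the root arrays. The 2 measured photosynthetic markers, LHCB4.1 and RCA, were bright on the root arrays too. They summed to between 2566 and 2797 there and between 16473 and 22701 on the inflorescence arrays. UFO, the only floral organ marker measured, was dim on all 14 arrays, and no endodermis marker was measured. Some measurements differed between the genotypes, between the tissues or between replicates. The summed level of 4 late pollen markers was 1575 to 1695 on the Col-7 inflorescence arrays and 189 to 355 on the gir inflorescence arrays. The actin 3′ to 5′ signal ratio, a measure of RNA integrity, was 1.49 ± 0.08 (SD, n = 3) in Col-7 roots and 1.67 ± 0.06 (SD, n = 3) in gir roots. On the inflorescence arrays it was 2.27 ± 0.04 in Col-7 and 2.16 ± 0.15 in gir (SD, n = 4), above every root array. The part of this ratio in the tissue differences was not tested. The 25S ribosomal RNA control was at most 954 on inflorescence replicates 1 and 2 of both genotypes and at least 2768 on replicates 3 and 4.

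Values are array intensities on a linear scale, and the precision is limited by the number of arrays. A probe set was tested in a comparison if it was at or above the 40th percentile of its array, an intensity between 111 and 140, on enough arrays to fill the smaller group. Of the 27 genes, 15 reached that percentile on every array, 5 on some arrays and 7 on none. The 7 dim genes were BHLH101, BZIP34, bZIP42, bZIP43, bZIP48, bZIP58 and WRKY42. Differences are on the log2(intensity + 26) scale, with the standard error (SE) from limma and p-values adjusted by Benjamini-Hochberg over all probe sets tested.

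**Figure D1:**
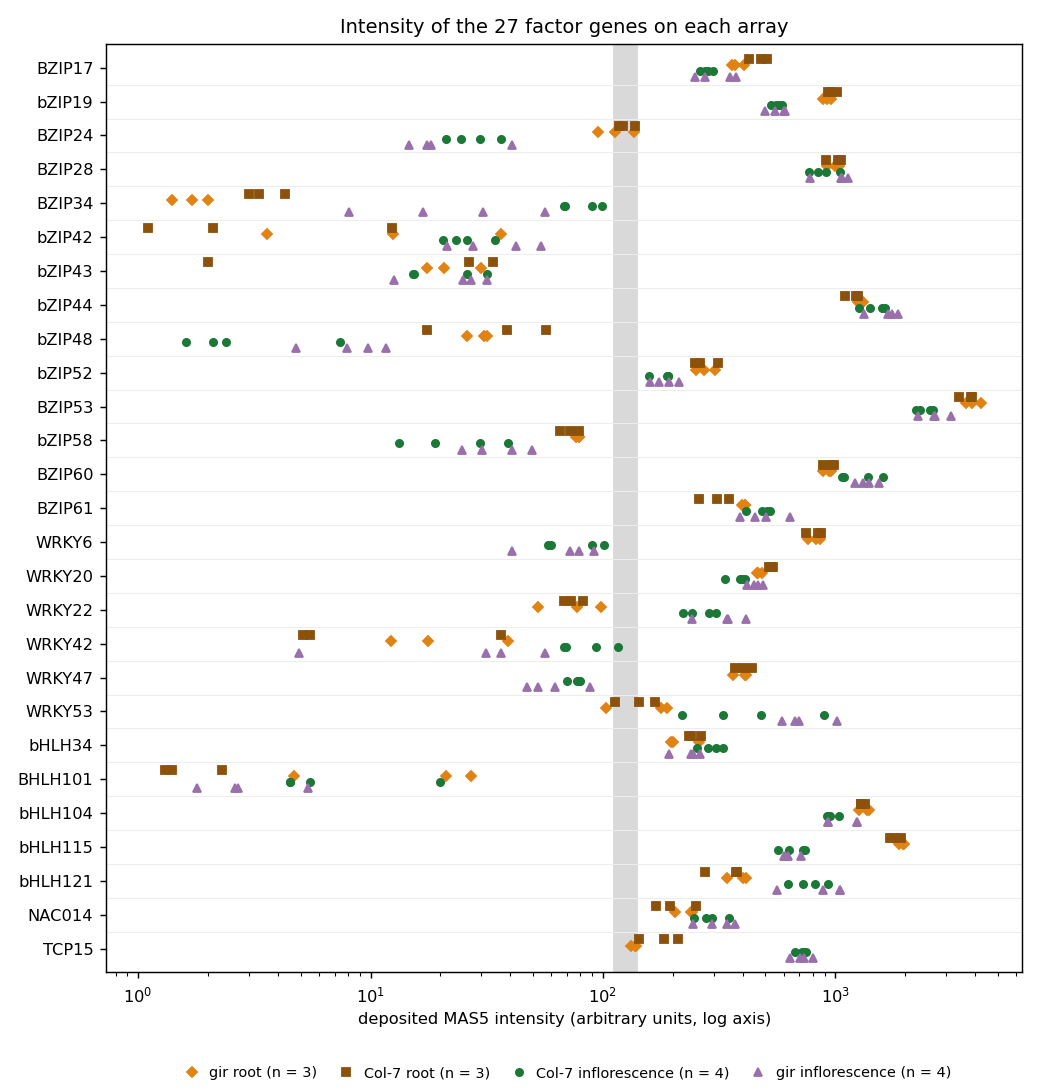
Intensity of each of the 27 genes on each array (log axis, 1 point per array, coloured by group, genes grouped by family), with the grey band marking the range of the arrays' 40th percentiles, 111 to 140. The 7 dim genes lie below their own array's percentile on every array, with a single WRKY42 point reaching into the band, and WRKY6 and WRKY47 lie above it on root arrays and below it on inflorescence arrays.

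The first question was which of these factors differed between gir and Col-7. In roots, 1 of the 19 genes tested passed an adjusted p of 0.05, against 11.9% of all 13799 probe sets tested there. That gene was BZIP61, which was higher in gir, as were 5.49% of all probe sets. In inflorescences none of the 17 genes tested passed with limma, against 25.0% of 13970 probe sets. An unadjusted p under 0.05 was found for 2 of the 17, against 37.2% of all probe sets. The median difference over the genes tested was -0.01 in roots, where the median of all probe sets was also -0.01, and 0.13 in inflorescences, where it was 0.06. The 95% confidence interval of the genotype difference lay within 2-fold in either direction for all 19 genes tested in roots, and for 98.6% of all probe sets tested. In inflorescences it lay within 2-fold for 16 of 17 genes, all but WRKY53, and for 90.7% of all probe sets.

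**Figure D2:**
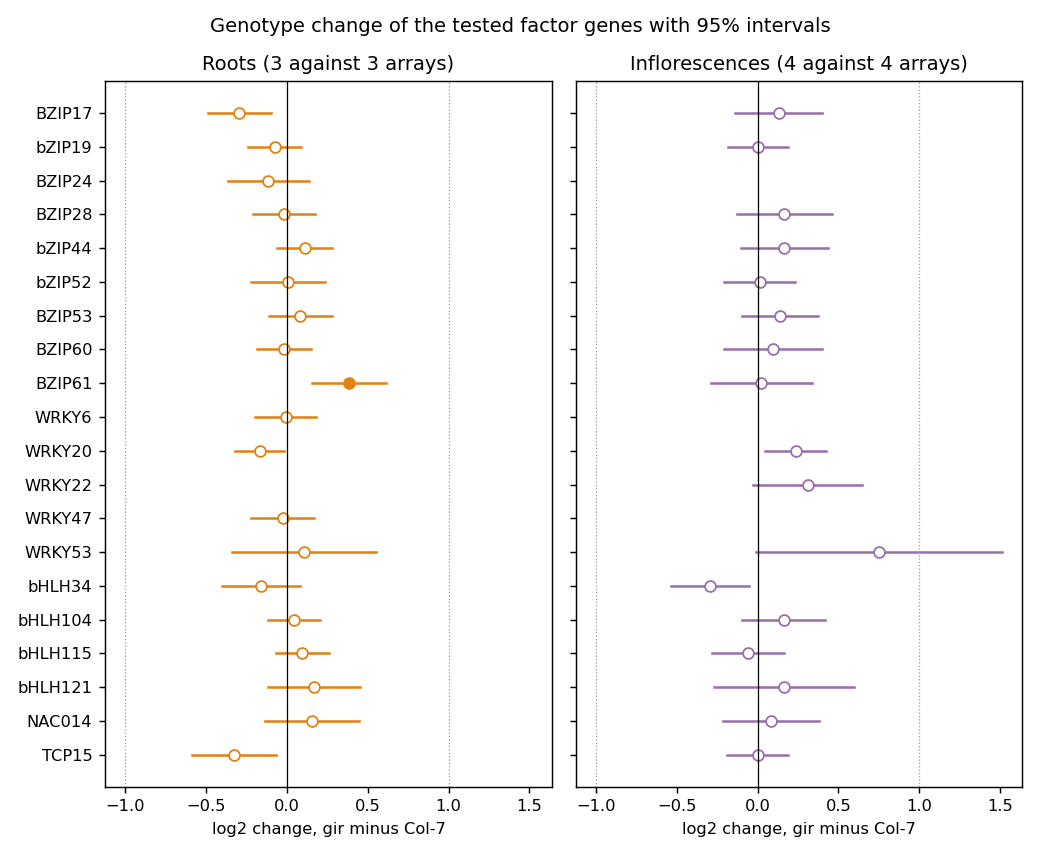
Difference between gir and Col-7 for each gene tested (log2 scale), with 95% confidence intervals, in roots and in inflorescences. Filled points passed the threshold and dotted lines mark a 2-fold difference. BZIP61 in roots is the gene that passed the threshold, and the widest interval is that of WRKY53 in inflorescences.

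The inflorescence replicates 1 to 4 were numbered alike in both genotypes, and arrays of the same number deviated together, as did some arrays of different numbers, so a fit with the replicate number as a block was also made. With that block, 2 of the 17 genes passed in inflorescences, against 34.8% of all probe sets tested. They were WRKY22, at a log2 difference of 0.31 (adjusted p = 0.0195), and bHLH34, at -0.29 (adjusted p = 0.0205). Late pollen markers moved with genotype on the same arrays. All 3 tested were lower in gir (ANX2, ACT12 and MGH3, log2 differences of -2.80, -2.17 and -2.19). ANX2 and MGH3 passed the filter through the Col-7 arrays alone, so they had to be lower in gir and give no test. ACT12 reached the filter level on 2 of the 4 gir arrays, and ANX1 was too dim to test. None of the 4 tapetum markers passed. Both photosynthetic markers measured were higher in gir inflorescences, LHCB4.1 by 0.32 and RCA by 0.26. Without the block, 25.0% of all probe sets passed in inflorescences, in either direction. Their part in the values of the transcription factors was not tested. In bulk tissue, fewer cells of a type and less RNA per cell cannot be told apart.

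The bZIP genes include the 3 factors of the endoplasmic reticulum stress response. BZIP17 and BZIP28 proteins are held in the membrane and released by proteases such as S1P, and the BZIP60 transcript is spliced by IRE1 under stress. The arrays measured transcript levels and neither release nor splicing. BZIP17 (AT2G40950) read 424.7, 509.7 and 477.1 in Col-7 roots and 359.8, 370.9 and 403.1 in gir roots. These groups did not overlap, and every gir root array was the lower, but the difference of -0.30 ± 0.09 (SE) did not pass (limma adjusted p = 0.060). Without Col-7 root replicate 1 it passed at -0.36 (adjusted p = 0.0412). With single arrays left out it lay between -0.36 and -0.24, and its adjusted p reached 0.213 over the alternatives. In inflorescences BZIP17 read 274.5, 261.9, 284.2 and 296.6 in Col-7 and 353.0, 248.9, 274.7 and 372.3 in gir, which overlapped (0.13 ± 0.12, adjusted p = 0.47). Its genotype difference in inflorescences minus that in roots was 0.43 ± 0.16 (adjusted p = 0.082), and this passed with the replicate block (adjusted p = 0.0328), a setting in which 26.1% of all probe sets passed. Without gir inflorescence replicate 2 this difference was 0.52 (adjusted p = 0.0266). With single inflorescence or root arrays left out it lay between 0.34 and 0.52, and its adjusted p reached 0.18 over the alternatives.

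BZIP28 (AT3G10800) held intensities between 770.7 and 1139 on all 14 arrays, with overlapping groups throughout. Its genotype differences were -0.02 ± 0.08 in roots and 0.17 ± 0.13 in inflorescences, and neither passed. BZIP60 (AT1G42990) was between 885.5 and 987.0 on the root arrays and between 1069 and 1607 on the inflorescence arrays. Its genotype differences were -0.02 ± 0.07 in roots and 0.10 ± 0.14 in inflorescences. Of 25 genes listed for the stress response these factors control, 5 were measured and 4 were tested in each genotype comparison, with none passing in either tissue. DER1, which acts in the removal of misfolded proteins, passed for its genotype effect in inflorescences minus that in roots (0.32 ± 0.10, adjusted p = 0.036), with values of -0.19 in roots and 0.13 in inflorescences. It was 1 of 4 listed genes tested there, against 18.2% of all probe sets.

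The group E pair BZIP61 and BZIP34 are close relatives, and BZIP34 is known from pollen development. BZIP61 (AT3G58120) read 259.3, 349.5 and 309.6 in Col-7 roots, a mean of 306 ± 45.2 (SD, n = 3). In gir roots it read 410.4, 396.8 and 408.7, a mean of 405 ± 7.41 (SD, n = 3). All 3 gir root arrays were above all 3 Col-7 root arrays, which was also so, in either direction, of 32.9% of the probe sets tested and of 4 of the 19 genes. The rise was 0.39 ± 0.10 on the log2 scale (limma adjusted p = 0.041). The call was lost at the same value in the joint fit of 14 arrays (adjusted p = 0.166), when dim probe sets were kept (0.128) and with a replicate block (0.0621). It was also lost without gir root replicate 1, 2 or 3, at 0.38, 0.40 and 0.38 (adjusted p of 0.112, 0.099 and 0.0951). Without Col-7 root replicate 1 or 3 the difference was 0.28 and 0.40 (adjusted p of 0.0796 and 0.0833). On the same arrays the root hair marker EXPA7 was higher in gir roots (0.44 ± 0.07, adjusted p = 0.0052), EXPA18 was at 0.04 ± 0.08, and the actin ratio and the ribosomal RNA control (865 to 1270 in Col-7, 390 to 774 in gir) did not overlap between the genotypes. Their part in the value of BZIP61 was not tested. In inflorescences BZIP61 averaged 482 ± 48.7 in Col-7 and 496 ± 108 in gir (SD, n = 4), with a difference of 0.02 ± 0.14 (adjusted p = 0.92). The difference between the tissues in its genotype effect was -0.36 ± 0.19 (adjusted p = 0.21).

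BZIP34 (AT2G42380) was dim and lay outside the test. Its Col-7 inflorescence arrays read 98.9, 89.5, 68.5 and 68.0, and its gir inflorescence arrays read 30.5, 56.5, 8.1 and 16.9. Every gir inflorescence array was below every Col-7 one, and all 6 root arrays read at most 4.3. Of the probe sets tested in inflorescences, 27.9% did not overlap between the genotypes, in either direction. When dim probe sets were not filtered out, the inflorescence difference was -1.06 ± 0.24 (limma adjusted p = 0.018), a setting in which 15.7% of all 22746 probe sets passed. The late pollen markers, at 1575 to 1695 summed in Col-7 and 189 to 355 in gir, were lower on the same gir arrays, and their part in this value was not tested.

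Group S1 factors bZIP44 (AT1G75390) and BZIP53 (AT3G62420) act under low energy supply, and their translation is repressed by sucrose. BZIP53 read 3868, 3847 and 3398 in Col-7 roots and 3659, 4225 and 3878 in gir roots, and the groups overlapped (0.08 ± 0.09, adjusted p = 0.59). In inflorescences it averaged 2426 ± 193 in Col-7 and 2687 ± 352 in gir (SD, n = 4). bZIP44 averaged 1194 ± 78.4 in Col-7 roots and 1289 ± 30.9 in gir roots (SD, n = 3), and 1472 ± 172 and 1658 ± 229 in the inflorescences (SD, n = 4). Neither gene passed for genotype in either tissue. Of 13 listed genes of sugar starvation and amino acid breakdown, 4 were measured and tested. None passed in roots. In inflorescences 1 of the 4 passed, against 25.0% of all probe sets. It was the locus AT5G38710, higher in gir (0.66 ± 0.09, limma adjusted p = 0.00038).

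The remaining bZIP genes had no called genotype difference. bZIP19 (AT4G35040), which activates zinc uptake genes under zinc deficiency, averaged 968 ± 47.6 in Col-7 roots and 917 ± 36.0 in gir roots (SD, n = 3). In inflorescences its means were 561 ± 27.9 and 564 ± 51.5 (SD, n = 4). Of 9 listed zinc deficiency genes 1 was measured, and it was too dim to test. BZIP24 (AT3G51960), a relative of bZIP19 with a role in salt stress, passed the filter in roots alone (-0.12 ± 0.11, adjusted p = 0.55). It read between 95.3 and 137.5 on the root arrays and between 14.7 and 40.6 on the inflorescence arrays. bZIP52 (AT1G06850) differed by 0.01 ± 0.10 in each tissue. The dim group S genes bZIP42, bZIP43, bZIP48 and bZIP58 read at most 54.4, 33.6, 56.8 and 78.8 on any array.

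WRKY proteins bind W-box DNA and are best known for defence and senescence. WRKY20 (AT4G26640), a group I member that carries a pair of WRKY domains, passed the interaction test, which asks whether the genotype effect differed between the tissues. In roots it read 529.1, 541.3 and 520.0 in Col-7 and 464.2, 459.3 and 482.0 in gir, with every gir array below every Col-7 array. In inflorescences it read 387.1, 397.7, 334.4 and 407.6 in Col-7 and 447.9, 415.6, 486.7 and 462.8 in gir, with every gir array above every Col-7 array. It was the 1 gene of 17 without overlap in inflorescences, against 27.9% of all probe sets. The difference within each tissue missed the threshold, at -0.17 ± 0.07 in roots (limma adjusted p = 0.14) and 0.23 ± 0.09 in inflorescences (adjusted p = 0.072). The difference between those effects passed at 0.40 ± 0.11 (adjusted p = 0.018). It was the 1 gene called of the 16 tested without a block, against 18.2% of all 11911 probe sets. It passed with the replicate block (adjusted p = 0.0282) and in inflorescence replicates 3 and 4 (0.51, adjusted p = 0.0128). WRKY20 missed the threshold in replicates 1 and 2 (0.30, adjusted p = 0.0881), where WRKY53 passed (1.08, adjusted p = 0.0451). Of all probe sets, 26.1% passed with the block, 22.3% in replicates 3 and 4, and 14.4% in replicates 1 and 2. The levels of WRKY20 in the mutant were thus closer to each other, at 469 ± 11.9 in roots and 453 ± 29.8 in inflorescences, than in Col-7, at 530 ± 10.7 and 382 ± 32.6 (SD, n = 3 and 4).

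WRKY53 (AT4G23810) promotes leaf senescence and had the widest spread. Its Col-7 inflorescence arrays read 219.4, 328.2, 893.3 and 478.5, and its gir inflorescence arrays read 591.8, 699.0, 667.9 and 1015. The groups overlapped through Col-7 replicate 3, which lay above 3 of the 4 gir arrays. The difference was 0.75 ± 0.34 (limma adjusted p = 0.14), with a 95% interval from -0.01 to 1.51. Without Col-7 inflorescence replicate 3 it was 1.10 (adjusted p = 0.0126), and with single arrays left out it lay between 0.46 and 1.10. Between arrays of the same number it was 1.33, 1.03, -0.41 and 1.04 for replicates 1 to 4, so replicate 3 stood apart from the others. In replicates 1 and 2 alone the difference was 1.18 (adjusted p = 0.00963), and in replicates 3 and 4 alone it was 0.32 (adjusted p = 0.472). In roots WRKY53 averaged 141 ± 27.4 in Col-7 and 156 ± 46.7 in gir (SD, n = 3), with overlapping arrays.

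WRKY22 (AT4G01250) acts downstream of a MAP kinase cascade in the response to bacterial flagellin. It read 220.1, 241.5, 305.3 and 285.7 in Col-7 inflorescences and 241.0, 341.4, 413.5 and 346.2 in gir inflorescences. Each gir array was above the Col-7 array of the same number, while the groups overlapped, and without the block the difference of 0.31 ± 0.15 did not pass (adjusted p = 0.17). Without gir inflorescence replicate 1 it was 0.45 (adjusted p = 0.021). With single arrays left out it lay between 0.21 and 0.45, and its adjusted p reached 0.364 over the alternatives. On the root arrays WRKY22 read at most 97.9, below the filter.

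The group IIb members WRKY6, WRKY42 and WRKY47 include WRKY6 and WRKY42, which repress the phosphate exporter gene PHO1. WRKY6 (AT1G62300) read 841.5, 867.6 and 748.6 in Col-7 roots and 857.9, 825.6 and 760.4 in gir roots, a difference of -0.01 ± 0.08. WRKY47 (AT4G01720) read 370.0, 400.5 and 436.0 in Col-7 roots and 413.5, 361.8 and 408.1 in gir roots, a difference of -0.03 ± 0.09. For both genes the root arrays of the genotypes overlapped, and every inflorescence array was below the filter. WRKY42 (AT4G04450) was dim everywhere. It read 69.1, 115.6, 67.7 and 93.1 in Col-7 inflorescences and 56.4, 36.3, 4.9 and 31.4 in gir inflorescences, without overlap. Of the probe sets tested in inflorescences, 27.9% did not overlap. Without the filter the difference for WRKY42 was -1.01 ± 0.27 (limma adjusted p = 0.035), below the level at which the other genes were tested. In that setting 15.7% of all 22746 probe sets passed. The late pollen markers were lower on the same gir arrays, and their part in this value was not tested.

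**Figure D3:**
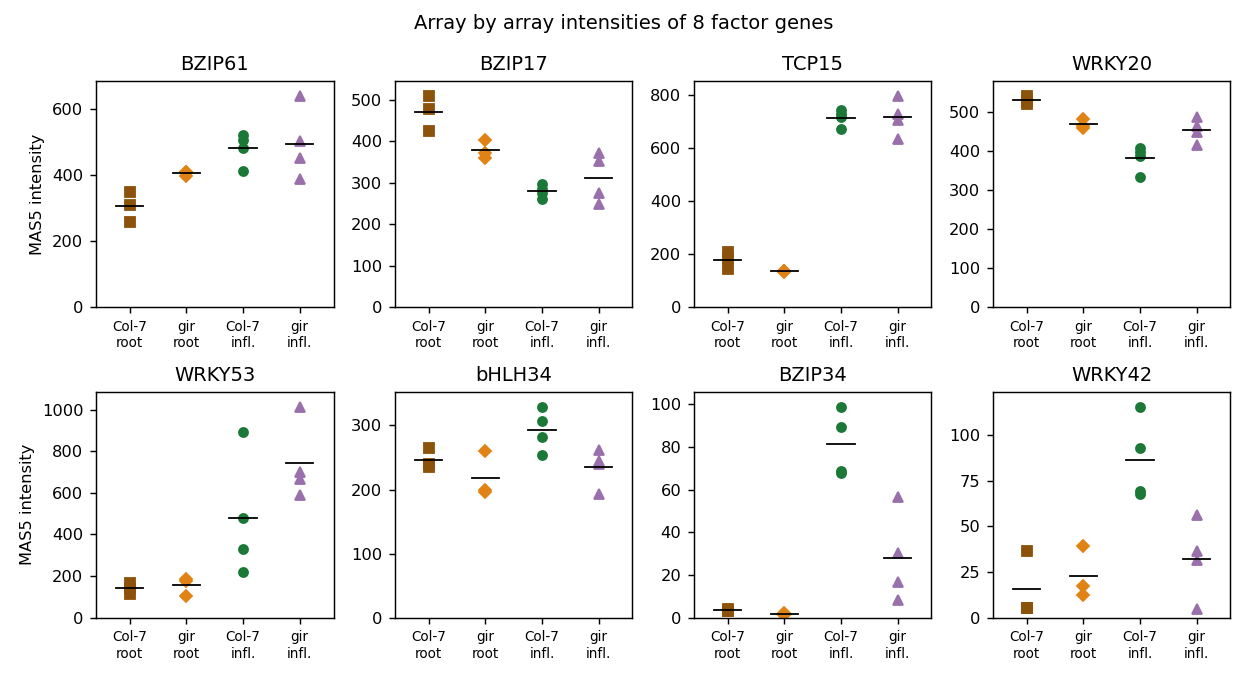
Intensity on each array for 8 genes picked after their values were seen (1 panel per gene, linear axis from 0, 1 point per array, bars at group means). In the WRKY20 panel the gir arrays lie below Col-7 in roots and above Col-7 in inflorescences, without overlap in either tissue.

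The bHLH genes here all belong to iron regulation. bHLH34, bHLH104 and bHLH115 are group IVc factors that, with ILR3 and their partner bHLH121, activate genes such as BHLH101 when iron is short. bHLH34 (AT3G23210) read 329.5, 307.6, 282.3 and 253.6 in Col-7 inflorescences and 240.4, 244.5, 261.6 and 192.4 in gir inflorescences. Each gir array was below the Col-7 array of the same number, while the groups overlapped through 1 array of each. Without the block its difference of -0.29 ± 0.11 did not pass (adjusted p = 0.074). In roots it averaged 246 ± 16.0 in Col-7 and 219 ± 35.6 in gir (SD, n = 3; -0.16 ± 0.11, adjusted p = 0.37).

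bHLH115 (AT1G51070) read 1914, 1715 and 1806 in Col-7 roots and 1948, 1880 and 1978 in gir roots. Its inflorescence arrays read between 567.4 and 741.2 in Col-7 and between 603.1 and 710.4 in gir. The genotypes overlapped in both tissues (0.10 ± 0.07 in roots and -0.06 ± 0.10 in inflorescences). bHLH104 (AT4G14410) averaged 1302 ± 30.7 in Col-7 roots and 1345 ± 66.2 in gir roots (SD, n = 3), and 959 ± 50.1 and 1085 ± 182 in inflorescences (SD, n = 4). bHLH121 (AT3G19860) averaged 342 ± 58.4 and 385 ± 38.1 in the roots (SD, n = 3), and 773 ± 128 and 886 ± 232 in the inflorescences (SD, n = 4). Neither gene passed for genotype in either tissue.

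BHLH101 (AT5G04150), the target of this group, was dim on every array. It read 2.3, 1.3 and 1.4 in Col-7 roots and 4.7, 21.2 and 27.1 in gir roots, all far below the percentile used as the filter. Without the filter the root difference was 0.62 ± 0.20 (limma adjusted p = 0.16), while its genotype effect in inflorescences minus that in roots was -0.85 ± 0.25 (adjusted p = 0.035), where 14.4% of all probe sets passed. Of 21 further genes of iron regulation 5 were measured, and 1 of 5 passed in roots, against 11.9% of all probe sets. It was the locus AT1G74770, higher in gir (1.03 ± 0.13, adjusted p = 0.0024). In inflorescences 1 of 3 passed, against 25.0% of all probe sets. It was the locus AT3G13610, lower in gir (-0.62 ± 0.09, adjusted p = 0.00041). ILR3, the remaining group IVc factor, differed by 0.08 ± 0.06 in roots and by less than 0.01 in size in inflorescences, and PYE, a bHLH regulator of iron deficiency, by -0.01 ± 0.09 and -0.14 ± 0.11. None of these 4 differences passed. The list of iron uptake genes had 1 of 13 measured and none bright enough to test.

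TCP15 (AT1G69690) is a class I TCP factor of cell proliferation and endoreduplication. It read 183.2, 209.9 and 142.8 in Col-7 roots and 131.4, 137.4 and 138.1 in gir roots. All gir root arrays were below all Col-7 ones, with Col-7 replicate 3 next to the gir arrays. The difference of -0.33 ± 0.12 did not pass (limma adjusted p = 0.11), and without Col-7 root replicate 3 it was -0.46 (adjusted p = 0.018). With single arrays left out it lay between -0.46 and -0.22, and its adjusted p reached 0.254 over the alternatives. In inflorescences its means were 716 ± 31.9 in Col-7 and 718 ± 67.2 in gir (SD, n = 4), a difference of 0.00 ± 0.08. The genotype effect differed between the tissues by 0.33 ± 0.14 (adjusted p = 0.13). None of the 5 listed cell cycle and jasmonate targets of TCP factors was measured.

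NAC014 (AT1G33060) read 195.1, 251.1 and 168.5 in Col-7 roots and 205.0, 242.6 and 238.3 in gir roots, with overlap. Its genotype differences were 0.15 ± 0.13 in roots (adjusted p = 0.49) and 0.08 ± 0.13 in inflorescences (adjusted p = 0.69). The lists for pathways that NAC, MYB, WRKY and bHLH factors control had few measured genes. Secondary wall genes had 2 of 21 measured and none passed for genotype. Glucosinolate genes had 3 of 16 measured and none passed. Flavonoid genes had 6 of 14 measured and 5 tested in roots, where 1 passed, against 11.9% of all probe sets. It was DFR, an enzyme of anthocyanin synthesis, which fell in gir by 0.43 on the log2 scale (SE 0.08, adjusted p = 0.0086). Of 13 genes of abscisic acid, drought and senescence 1 was measured, COR15A, which did not pass in either tissue. Of 17 salicylic acid and defence genes 1 was measured and it was too dim to test.

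The second question was how the levels of the factors were ordered between the tissues. In Col-7, 17 of the 19 genes tested passed between inflorescences and roots, 8 higher and 9 lower in inflorescences, against 77.8% of all 15438 probe sets (38.1% higher and 39.7% lower). In 16 of the 19 the tissues did not overlap, against 77.6% of all probe sets. The counts for the factors are read against that background. Genes that passed the filter through 1 tissue alone, WRKY22, WRKY6 and WRKY47, had to differ between the tissues. When each array was centred on its median, the median tissue difference of all probe sets moved by -0.15, so differences of about that size depend on the scaling.

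TCP15 had the largest rise among the genes tested, from 178.6 in Col-7 roots to 715.8 in Col-7 inflorescences, a log2 difference of 1.87 ± 0.11 (limma adjusted p = 2.3e-07). The difference in gir was 2.20, and no inflorescence array overlapped a root array in either genotype. WRKY53 was higher by 1.44 ± 0.37 and bHLH121 by 1.12 ± 0.15. WRKY22 was at 1.52 ± 0.12, but it passed the filter through the inflorescence arrays alone and so had to be higher there. BZIP61 was higher by 0.62 ± 0.12 (adjusted p = 0.00086), with a gir difference of 0.25 whose arrays overlapped. NAC014 (0.47 ± 0.14), BZIP60 (0.42 ± 0.14) and bZIP44 (0.29 ± 0.11) also passed with higher values in inflorescences. Of the 17 calls, these 3 were lost under some alternatives in which they were tested. NAC014 missed the threshold under quantile normalization and median centring and without Col-7 root replicate 3. BZIP60 missed it under median centring, without Col-7 root replicate 3 and without Col-7 inflorescence replicate 4. bZIP44 missed it under median centring and without Col-7 root replicate 1 or 3 or Col-7 inflorescence replicate 1 or 2.

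WRKY6 and its group IIb relative WRKY47 passed the filter through the root arrays alone, so their falls were fixed in advance and give no test. WRKY6 was at -3.06 ± 0.15, from a mean of 819 ± 62.5 in Col-7 roots (SD, n = 3) to 77.1 ± 21.5 in Col-7 inflorescences (SD, n = 4). WRKY47 was at -2.06 ± 0.08. Both inflorescence levels were below the filter, so the scale understates these differences. bHLH115 was at -1.42 ± 0.11 and bHLH104 at -0.43 ± 0.08, while their partner bHLH121 was at 1.12 ± 0.15, so the iron factors were not ordered alike between the tissues. Smaller falls were those of bZIP19 (-0.76 ± 0.08), BZIP17 (-0.70 ± 0.09), BZIP53 (-0.61 ± 0.09), bZIP52 (-0.53 ± 0.10) and WRKY20 (-0.45 ± 0.09). bHLH34 (0.23 ± 0.10, adjusted p = 0.061) and BZIP28 (-0.16 ± 0.11, adjusted p = 0.21) did not pass. bHLH34 passed without Col-7 inflorescence replicate 4 (0.29, adjusted p = 0.02), and BZIP28 passed under median centring (-0.31, adjusted p = 0.0237). Over the alternatives the adjusted p reached 0.508 for bHLH34 and 0.439 for BZIP28.

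In 13 of the 19 genes, inflorescence and root arrays did not overlap and lay the same way in both genotypes, a share near the 65.1% of all probe sets tested. The 13 include WRKY22, WRKY6 and WRKY47, and in none of the 19 did the genotypes lie opposite ways without overlap. WRKY20 was at -0.45 in Col-7 and -0.05 in gir, and BZIP17 at -0.70 and -0.27, with overlapping gir arrays in both cases. Among the listed pathway genes, DFR, UF3GT, AT4G14090, AT5MAT and BCAT4 passed the filter through the root arrays alone and so had to be lower in inflorescences. Of the other flavonoid and glucosinolate genes tested, UGT78D2, UGT74B1 and AT2G31790 were lower in Col-7 inflorescences, against 39.7% of all probe sets. Of 4 sugar starvation genes 2 were higher and 2 lower.

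**Figure D4:**
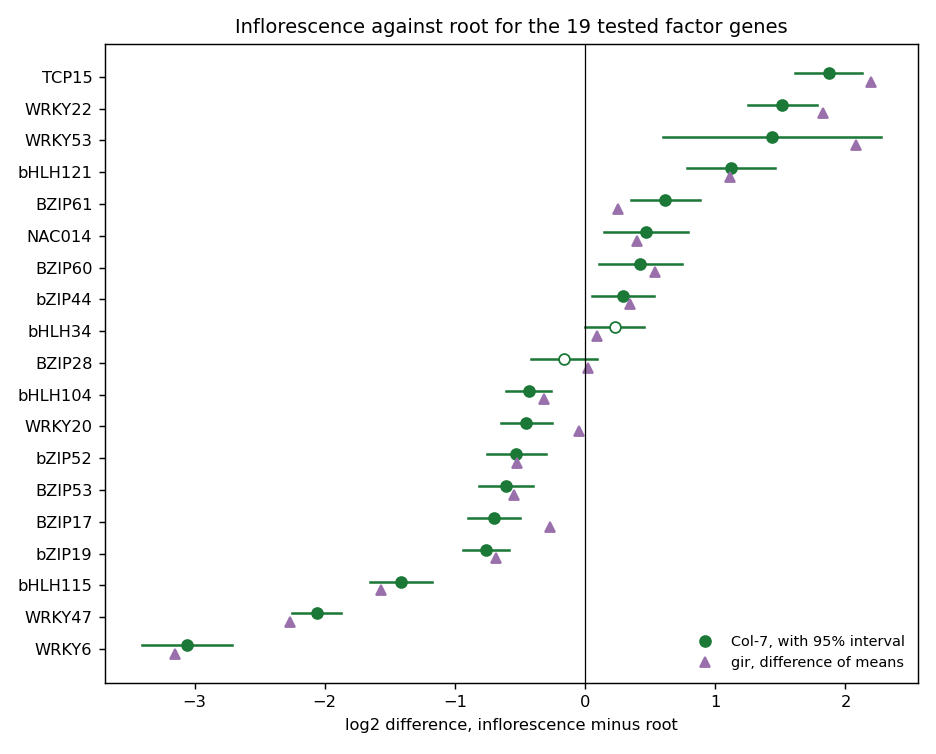
Inflorescence minus root difference of the 19 genes tested (log2 scale), in Col-7 (circles, filled where they passed, with 95% confidence intervals) and in gir (triangles, difference of group means), ordered by the Col-7 value. Most genes have similar values in both genotypes, and WRKY20 is at -0.45 in Col-7 and -0.05 in gir.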

How the data were processed

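The authors deposited 1 intensity per probe set and array for 22810 probe sets. These are linear values from MAS5, according to the submitters' processing notes. The MAS5 version and genome build are not given in the sources used here. The 64 control probe sets were left out of the tests. Genes were named from GEO's platform annotation, in which 13513 probe sets name 1 gene, and all 27 factors matched a gene table of assembly TAIR10.1. Values were taken as log2(intensity + 26). limma 3.58.1 (lmFit and eBayes, R 4.3.3) was fitted over all probe sets passing the filter, for each tissue apart, for the interaction over 14 arrays and for the Col-7 tissues, two-sided, with Benjamini-Hochberg adjustment and a threshold of 0.05. Means ± SD are of the linear intensities, and SE is that of the fitted log2 difference. Plots used Python 3.11.15 and matplotlib 3.10.9.

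Same-numbered inflorescence arrays correlated in their deviations from group means (r = 0.587, 0.191, 0.203 and 0.516 for replicates 1 to 4 over probe sets) and were taken as pairs on that basis, not from the design. Some differently numbered arrays correlated as much (gir 3 with Col-7 4, r = 0.249, gir 4 with Col-7 3, r = 0.402, and gir 1 with Col-7 2, r = 0.188), and pairs across replicates 1 and 4 were negative (r = -0.445 and -0.538). Root arrays did not (r = 0.077, 0.007 and 0.017). The factors, gene lists, marker lists and tests were chosen with earlier results of these data known, and the lists for protein folding stress, iron regulation and zinc were added after the factors had been identified. Genes were named by family as those passing a comparison, the extremes between tissues, the highest mean level, and the 8 of smallest interaction p. Other genes of the set were named after their values were seen. The fits were tested on simulated data with known differences. At a log2 difference of 0.5, 91.5% were called in the right direction in roots and 69% in inflorescences. The share was 38.5% for the interaction and 71% between the tissues. At a log2 difference of 1 it was at least 97% in each. Differences of 0.5 or smaller could therefore miss the threshold. Alternatives were other pseudocounts, filters, scalings, a replicate block, a joint fit, subsets of replicates and each array left out.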

Additional observations from a re-analysis of the deposited data

Results flagged for a closer look

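Of 54 groups of 4 arrays (27 genes in Col-7 and gir inflorescences), 4 held 1 array far from the others, and chance alone flags about 1 in 20 groups. BHLH101 read 20.0 on Col-7 inflorescence replicate 1 against 4.5 to 5.5 on the other Col-7 inflorescence arrays. bZIP48 read 7.4 on the same array against 1.6 to 2.4, and bZIP52 read 158.6 on it against 188.3 to 191.1. BZIP24 read 40.6 on gir inflorescence replicate 2 against 14.7 to 18.2 on the other gir inflorescence arrays. In inflorescences BHLH101, bZIP48 and BZIP24 were below the level at which probe sets were tested. WRKY20 had a genotype effect that differed between inflorescences and roots by 0.40 on the log2 scale, by the interaction term.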

How the results depend on the processing

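Over the 71 gene differences tested, 1165 values were obtained under alternatives. Of these, 1128 stayed on the same side of the threshold, 20 lost their call, 17 gained one and 0 changed sign while called. Values that were not called could change sign and still count among the 1128. For bHLH104 in inflorescences the difference was 0.16, and -0.01 in replicates 1 and 2 only. In roots the count called was 1 of 19, with 0 of 27 when dim probe sets were kept (2.71% of all probe sets), 0 with the replicate block (9.28%), 0 in the joint fit of 14 arrays (5.12%), 2 of 13 with a filter at the 60th percentile (BZIP61 and BZIP17, 15.7%), and 0 to 1 with single arrays left out. The root numbers do not pair the arrays, and BZIP61 had an adjusted p of 0.0621 with that block and between 0.023 and 0.166 over its alternatives. In inflorescences it was 0 of 17, with 2 of 27 when dim probe sets were kept (BZIP34 and WRKY42, 15.7%), 2 with the replicate block (WRKY22 and bHLH34, 34.8%), 1 each under quantile normalization (25.4%), median centring (29.0%) and the joint fit (30.3%), each time WRKY20, 1 in replicates 1 and 2 only (WRKY53, 11.5%) and 0 to 1 with single arrays left out. For the interaction it was 1 of 16, and 2 of 27 when dim probe sets were kept (BHLH101 added, 14.4%). With the replicate block it was 2 (BZIP17 added, 26.1%), and with single arrays left out 1 to 2. In replicates 1 and 2 only, the 1 gene called was WRKY53 in place of WRKY20 (14.4%). The replicate block changed no other genotype call. The tissue count of 17 of 19 ranged from 14 to 17 with single arrays left out. It was 13 of 14 with the 60th percentile filter (81.2%) and 23 of 27 with dim probe sets kept (63.7%). It was 16 under quantile normalization (77.8%), 15 under median centring (79.1%) and 17 with a pseudocount of 10 (77.4%) or 50 (78.3%). Over all probe sets, the 1636 called in roots became 616 when dim probe sets were kept and 707 in the joint fit. The 3487 in inflorescences became 1604 in replicates 1 and 2 only. With single arrays left out, 819 to 1224 of 13799 were called in roots and 2630 to 4020 of 13970 in inflorescences. For the interaction it was 1623 to 2589 of 11911, and between the Col-7 tissues 11444 to 11861 of 15438. Median centring moved the split of higher and lower calls from 758 and 878 to 1031 and 690 in roots, and from 1744 and 1743 to 2474 and 1576 in inflorescences. No gene had another probe set in the annotation, so that alternative gave no value. The cause of these shifts was not tested. Dim genes carry little signal over background, which limits what their values show.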

Other observations

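In 4 of the 17 genes tested in inflorescences, WRKY22, bHLH121, bZIP19 and bZIP44, replicates 3 and 4 lay apart from replicates 1 and 2 in the same direction in both genotypes. This share was near the 24.9% of all probe sets tested, so it does not set these genes apart. For bHLH121 the Col-7 arrays read 627.3, 722.6, 817.5 and 926.0 and the gir arrays 558.2, 884.9, 1050.5 and 1049.5 for replicates 1 to 4. For bZIP44 replicates 3 and 4 were the lower ones, at 1259 and 1410 in Col-7 and 1335 and 1679 in gir. The 25S ribosomal RNA control divided the same arrays in the same way, and its part in these values was not tested.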
